A study of Mus musculus with 6 samples.

Results

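A set of 40 myeloid cell genes was followed through RNA sequencing of sorted tumour-infiltrating CD8 T cells. The genes were taken by name from the 40879 genes of the count table and cover 8 subsets: 7 genes of macrophage identity, 3 complement C1q genes, 7 scavenger and pattern receptors, 5 secreted and metabolic products, 6 Fc receptors and their adaptors, 4 neutrophil genes, 3 dendritic cell genes and 5 genes of MHC class II presentation. The T cells came from tumours of MC38-hPD-L1, a mouse colon carcinoma line carrying human PD-L1, taken on day 12 from C57BL/6N mice. Photocatalytic proximity labelling placed biotin on cells near the tumour cells, and flow sorting then gave 3 libraries of Biotin+ CD8 T cells, the tumour-neighbouring ones, and 3 libraries of Biotin- CD8 T cells, the tumour-distal ones. The host strain and the tumour line were the same in both groups, and no unlabelled or non-T-cell library was analysed here. The labels number the replicates 1 to 3 in each group but do not say whether they are separate mice or pools, so the p-values below measure only the spread between these samples.

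Macrophages and monocytes arise under the transcription factor PU.1 (Spi1) and the growth factor receptor Csf1r, and in tumours they engulf dead cells, secrete complement and matrix proteins, and bind antibody through Fc receptors. Neutrophils carry the calcium-binding proteins S100a8 and S100a9, and cross-presenting dendritic cells carry Xcr1 and Clec9a. MHC class II molecules, C1q and lysozyme are not typical products of mouse CD8 T cells. In these bulk libraries, fewer myeloid cells and less myeloid RNA per cell cannot be told apart.

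The libraries held 16423106 to 19640693 counts assigned to genes. The 15 marker genes of CD8 T cells took 0.834% to 0.915% of the counts in Biotin+ and 0.501% to 0.650% in Biotin-, and 5 of them were higher in Biotin+ by the test used below, with none lower. Genes of fibroblasts and endothelium moved the other way: their 14 markers summed to 0.00980% to 0.0258% in Biotin+ and 0.0858% to 0.125% in Biotin-, and 6 of the 11 tested were lower in Biotin+. Markers of epithelial and tumour cells (0.00207% to 0.0133% against 0.00160% to 0.00614%), B and plasma cells (0.00425% to 0.00634% against 0.00490% to 0.00993%), CD4 T cells (0.000134% to 0.000475% against 0.000341% to 0.000961%), NK and gamma delta T cells (0.00344% to 0.00948% against 0.00654% to 0.0105%) and mast cells, basophils and eosinophils (0.00150% to 0.00197% against 0.00158% to 0.00230%) overlapped between the groups. These were overlaps of sums, and single genes supplied most of some sums. In Biotin+ replicate 1, Cdh1 had 2387 counts of the epithelial sum, against 97 for the next gene. Ighm had 1130 of the B and plasma cell sum there, against 31 for the next. Cd4 itself did not overlap, at 1.62, 1.19 and 0.848 CPM in Biotin+ and 5.45, 3.29 and 2.27 CPM in Biotin-. The other genes of its list overlapped. Of the 14 fibroblast and endothelial markers, 0 were without a count in all 6 libraries.

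Myeloid transcripts were present in every library. The 40 genes together took 0.316%, 0.230% and 0.125% of all counts in Biotin+ replicates 1, 2 and 3, and 0.697%, 0.201% and 0.329% in Biotin- replicates 1, 2 and 3. The highest share was in Biotin- replicate 1 and the lowest in Biotin+ replicate 3, and the groups overlapped, since Biotin- replicate 2 lay below Biotin+ replicates 1 and 2. Of the 40 genes, 26 had their highest value in Biotin- replicate 1 and 26 their lowest in Biotin+ replicate 3. Among all 13360 genes tested, 1507 and 1694 did so. Per kilobase of exon, on TMM-scaled read counts (CPM, relative to library size), the most abundant were Lyz2 at 288 CPM per kb (mean of the 6 libraries), Cd74 at 247, Apoe at 155, C1qb at 130, Cd14 at 129 and C1qa at 127. Ciita at 0.313, Cd163 at 0.253, Clec9a at 0.123 and Cxcr2 at 0.0458 CPM per kb were the lowest.

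**Figure D1:**
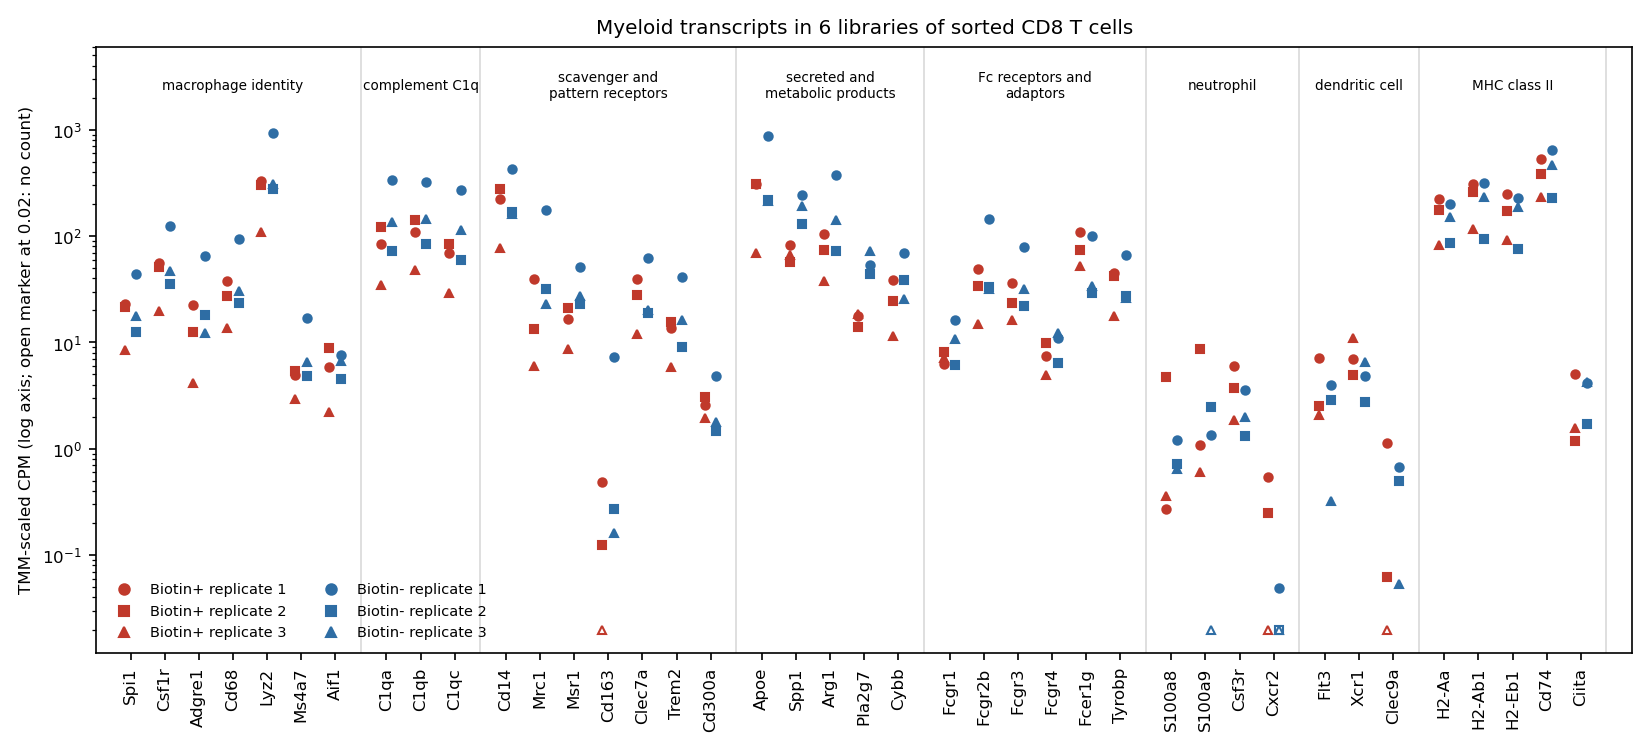
TMM-scaled CPM (log axis) of each myeloid gene, ordered by subset, with 1 marker per library; colour gives the group, marker shape the replicate number, and an open marker at the bottom a library with no count. For most genes Biotin- replicate 1 is at the top and Biotin+ replicate 3 at the bottom. Spp1, Pla2g7 and Msr1 separate by group.

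Between the groups, 2 of the 37 myeloid genes that could be tested were lower in Biotin+ and 0 were higher. These were Spp1, which encodes the secreted matrix protein osteopontin, and Pla2g7, which encodes a secreted phospholipase that degrades platelet-activating factor. The test was edgeR's quasi-likelihood test with Benjamini-Hochberg adjustment over all 13360 genes tested, at an adjusted p below 0.05, and it called 8.26% of all genes, 6.72% lower and 1.53% higher. At an unadjusted p below 0.05, 6 of the 37 were lower and 0 higher, beside 13.9% of all genes lower. DESeq2's Wald test called 3 of the 37 lower (Msr1, Pla2g7 and Spp1) and 0 higher, beside 10.4% and 3.53% of all genes. The group ranges of CPM did not overlap for 3 members lower in Biotin+ (Msr1, Spp1 and Pla2g7) and for 0 higher, beside 15.9% and 13.4% of all genes. Without a filter on low counts, edgeR called 8 of the 40 lower, beside 1495 of 22334 genes, a larger share. The fits before it used that filter and no replicate term. Their adjusted calls and the group ranges put the share of myeloid genes lower in Biotin+ no higher than that of all genes. The fitted log2 difference was nonetheless negative for 28 of the 37, beside 44.7% of all genes, with a median of -0.64 beside 0.06 over all genes. Without Biotin- replicate 1, 19 of the 37 were negative and the median was -0.0043.

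The direction depended on the pair of libraries that share a number. In pair 1, 31 of the 40 genes were lower in Biotin+, in pair 3, 34 were, and in pair 2 only 10 were. Of all 13360 tested genes, 6114, 6797 and 6141 were lower in pairs 1, 2 and 3. The median log2 ratio of Biotin+ to Biotin- over the tested myeloid genes was -1.13 in pair 1, 0.55 in pair 2 and -1.09 in pair 3. Over all tested genes it was 0.05, -0.02 and 0.06. Each ratio was taken on CPM plus 0.25. Of the 37 tested genes, 22 were higher in Biotin+ in pair 2 and lower in pairs 1 and 3, a pattern held by 9.81% of all genes. The genes lower in all 3 pairs numbered 6 (Adgre1, Mrc1, Msr1, Spp1, Pla2g7 and Cybb), beside 24.0% of all genes, and those higher in all 3 numbered 2 (Fcer1g and Xcr1), beside 26.8%. Same-numbered libraries deviated together from their group means over all genes (correlations of 0.397, 0.270 and 0.414), so the test was repeated with the replicate number as a block.

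With that block, 9 of the 37 genes were lower in Biotin+ (Adgre1, Arg1, Cybb, Fcgr2b, Lyz2, Mrc1, Msr1, Pla2g7 and Spp1) and 1 was higher (Fcer1g), beside 12.0% and 5.60% of all genes (17.6% in either direction). The count moved with the pairs used. Without pair 2 the blocked test called 25 lower and 0 higher, beside 14.9% and 8.55% of all genes. Without pair 1 it called 4 lower and 2 higher (Fcer1g and S100a9), beside 9.16% and 2.95%, and without pair 3 it called 5 lower and 0 higher, beside 8.58% and 1.69%. Mrc1, Arg1, Spp1 and Pla2g7 were called lower in each of these 3 fits. Each fit kept 2 of the 3 pairs and shared libraries with the others, so the fits are not independent. With so few libraries, little was left in each to estimate the spread. Arg1 was called in each although its log2 ratio in pair 2 was 0.01. The scale also mattered: when libraries were scaled to the 15 CD8 T cell genes instead, which moved the median of all genes by -0.75 on the log2 scale, 15 of the 37 were lower and 0 higher, beside 26.8% and 0.180% of all genes (26.9% in either direction). Counts of the 7 macrophage identity genes per count of the CD8 T cell genes were 0.0560, 0.0385 and 0.0194 in Biotin+ and 0.260, 0.0593 and 0.0964 in Biotin-. On this scale the groups did not overlap, but the CD8 T cell share in the denominator was itself higher in every Biotin+ library. As a share of all counts the macrophage identity genes overlapped, with 0.0471% in Biotin+ replicate 1 and 0.0386% in Biotin- replicate 2. How many of all genes separated on this scale was not counted.

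**Figure D2:**
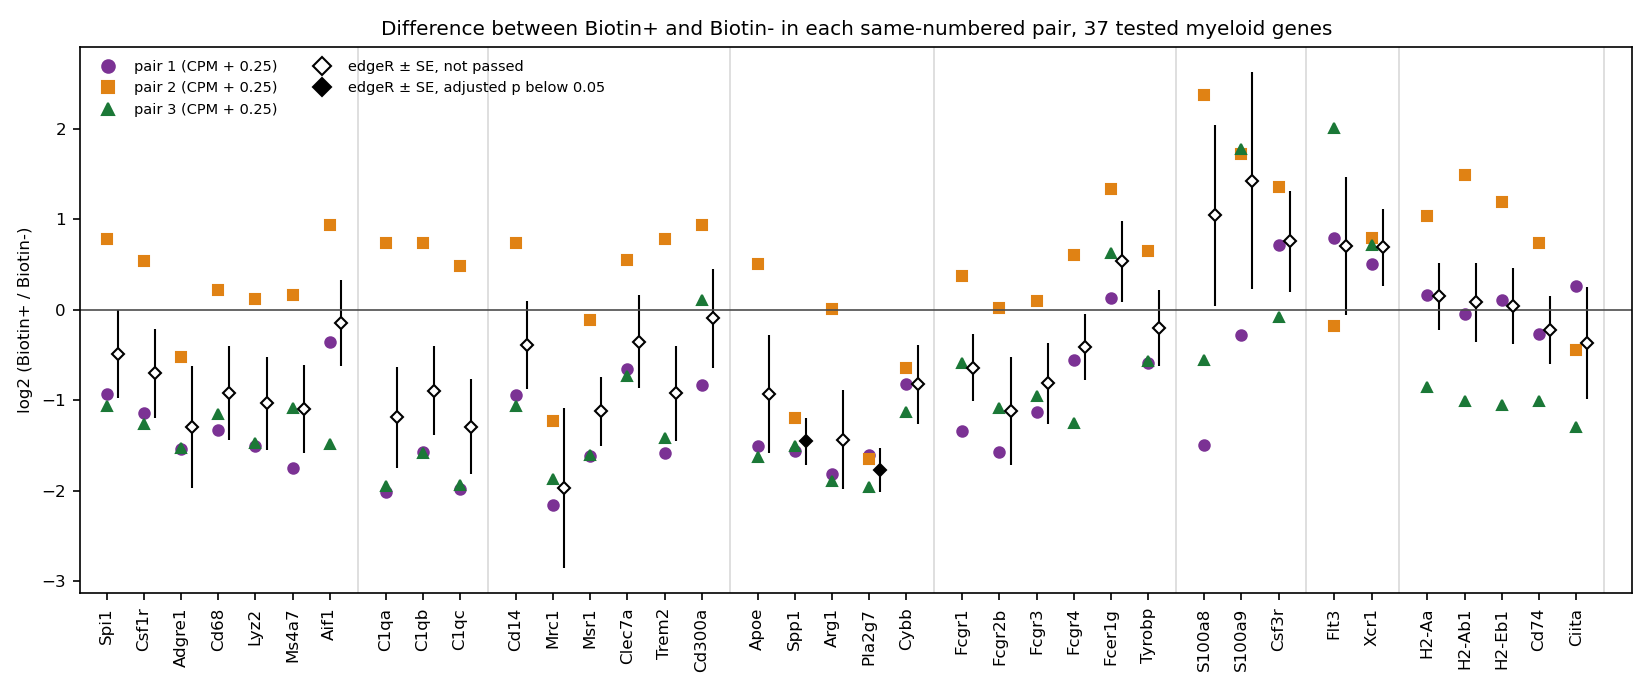
Log2 ratio of Biotin+ to Biotin- in each same-numbered pair (coloured markers, CPM plus 0.25) for the 37 tested genes, with the edgeR estimate ± SE as a diamond, filled where the adjusted p was below 0.05. Pair 2 lies above pairs 1 and 3 for most macrophage genes, and the 3 pairs lie close together for Spp1 and Pla2g7.

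The macrophage identity genes ran with the whole set. Lyz2, the macrophage and neutrophil lysozyme, stood at 331, 305 and 110 CPM in Biotin+ replicates 1, 2 and 3 and at 939, 280 and 307 CPM in Biotin-. Biotin- replicate 1 was far above the others of its group, and the other libraries overlapped apart from the low Biotin+ replicate 3. The log2 difference of Lyz2 was -1.03 ± 0.51 (SE; edgeR adjusted p = 0.27), and with the replicate block -0.96 ± 0.26 (edgeR adjusted p = 0.017), a call lost without pair 1 (0.142) or without pair 3 (0.124). Adgre1, the F4/80 antigen of tissue macrophages, had 22.4, 12.5 and 4.12 CPM against 65.3, 18.0 and 12.4 CPM and was lower in each pair (log2 ratios of -1.54, -0.52 and -1.53). Its edgeR adjusted p was 0.296, and 0.00303 with the block, or 0.0593 with the block and without pair 1. Csf1r, the receptor for the macrophage growth factors, had 56.3, 51.1 and 19.6 CPM against 124, 35.2 and 47.1 CPM, with a log2 difference of -0.70 ± 0.49 that did not pass (edgeR adjusted p = 0.442). Spi1 (-0.49), the lysosomal protein gene Cd68 (-0.92), Ms4a7 (-1.10) and the actin-binding Aif1 (-0.14) did not pass either, with or without the block.

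**Figure D3:**
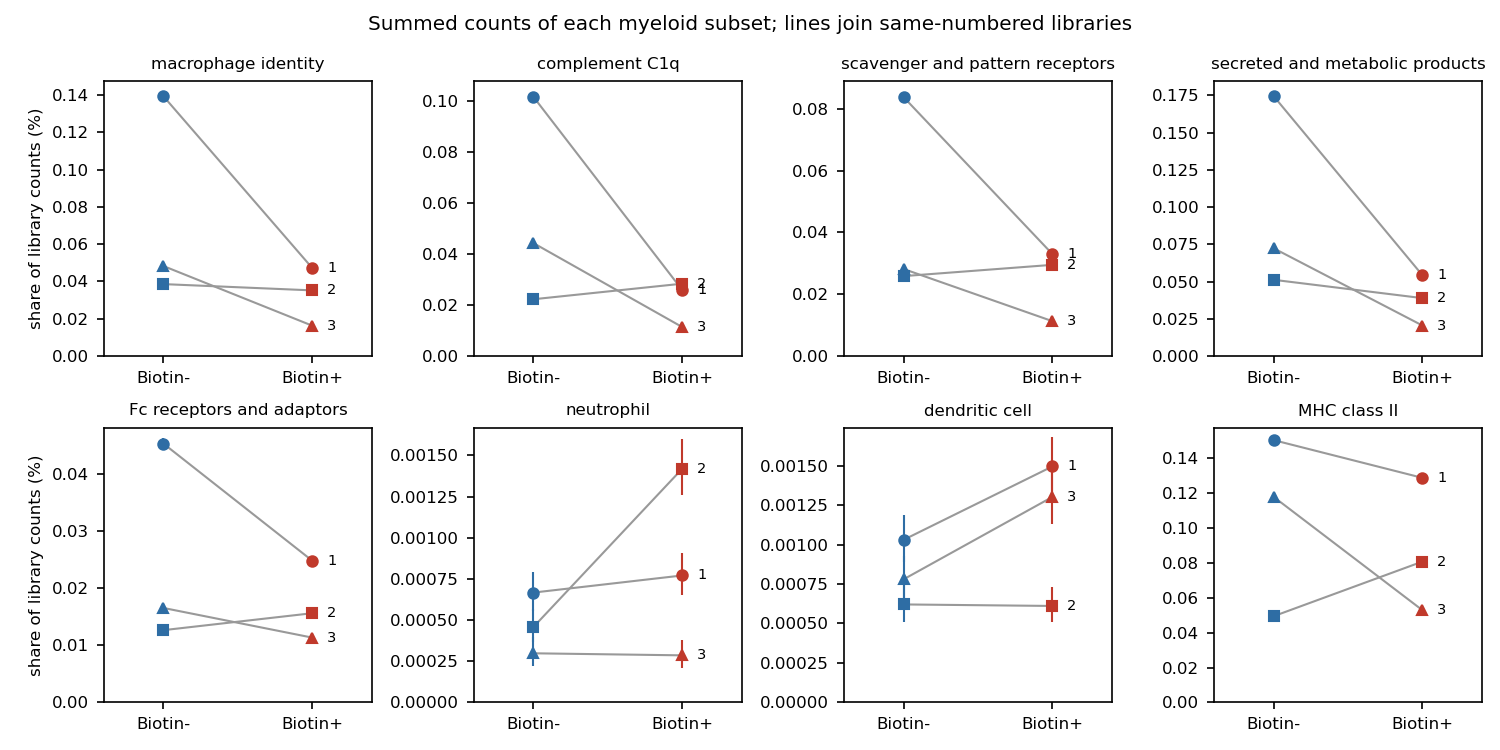
Summed counts of each of the 8 subsets as percent of all counts in a library, with lines joining same-numbered Biotin- and Biotin+ libraries and bars for the exact 95% Clopper-Pearson interval of counting error; every axis starts at 0. Pairs 1 and 3 slope down from Biotin- to Biotin+ in the macrophage subsets, while pair 2 is flatter or slopes up.

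The 3 C1q genes encode the chains of the recognition molecule of complement, made mainly by macrophages. The stretch just upstream of C1qb is shown with that of Spp1, because the first gene followed the macrophage pattern across libraries and the second separated by group. Both sequences are from RefSeq on GRCm38.p6 and end at the last base before an annotated start. C1qb lies at chr4:136886201-136886330 on the minus strand and Spp1 at chr5:104434981-104435110 on the plus strand. Capitals mark GAGGAA, the purine-rich core recognised by PU.1 and related ETS factors, as a match of letters and not as a measured site.
C1qb: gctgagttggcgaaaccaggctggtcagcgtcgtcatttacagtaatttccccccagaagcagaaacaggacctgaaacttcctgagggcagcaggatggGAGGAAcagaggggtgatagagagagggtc
Spp1: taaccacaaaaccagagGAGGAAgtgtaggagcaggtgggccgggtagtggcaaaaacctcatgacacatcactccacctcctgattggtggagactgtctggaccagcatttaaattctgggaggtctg
The match starts 30 bases before the start of C1qb and 113 bases before this start of Spp1. A second annotated start of Spp1 and the start of C1qc had no GAGGAA in their windows. Searched on both strands, GAGGAA was in 12.6% of the 32851 upstream windows of 130 bases in the table. Of the 29 myeloid genes with a promoter there, 13 held it in at least 1 window. That is a count of genes, which had 35 windows in all, and is not on the scale of the share of windows.

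The C1q genes showed the split between pairs most plainly. C1qa stood at 84.1, 122 and 34.7 CPM in Biotin+ and 341, 73.2 and 135 CPM in Biotin-, C1qb at 109, 141 and 48.0 against 325, 84.4 and 144 CPM, and C1qc at 69.3, 84.3 and 29.4 against 274, 60.1 and 113 CPM. All 3 genes were lower in Biotin+ in pairs 1 and 3 and higher in pair 2, and the groups overlapped for each. As a sum, C1q was 3.94 times as high in Biotin- as in Biotin+ in pair 1 and 3.92 times in pair 3, and 1.27 times as high in Biotin+ in pair 2, as a share of all counts. The edgeR log2 differences were -1.19 ± 0.56, -0.89 ± 0.49 and -1.29 ± 0.53 for C1qa, C1qb and C1qc, with adjusted p of 0.243, 0.32 and 0.179, and none passed with the block (0.127, 0.187 and 0.0811). The count of C1qc per count of C1qb was 0.635, 0.599 and 0.612 in Biotin+ and 0.843, 0.712 and 0.785 in Biotin-, without overlap. C1qa per count of C1qb ran from 0.723 to 0.868 in Biotin+ and from 0.867 to 1.05 in Biotin-, and overlapped. These ratios were picked after their values were seen and were not tested.

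Among the scavenger and pattern receptors, 0 of the 6 tested passed edgeR's test without the block, 1 was lower at an unadjusted p below 0.05, and DESeq2 called 1 lower (Msr1). Mrc1, the mannose receptor CD206 of alternatively activated macrophages, stood at 39.4, 13.5 and 6.06 CPM in Biotin+ and 177, 32.0 and 22.8 CPM in Biotin-. Each Biotin+ library was below its Biotin- partner, although Biotin+ replicate 1 was above Biotin- replicates 2 and 3. The log2 difference was -1.97 ± 0.89 (edgeR adjusted p = 0.237), and with the replicate block -1.78 ± 0.23 (edgeR adjusted p = 4.58e-05). Msr1, the class A scavenger receptor, had 16.7, 21.3 and 8.72 CPM against 51.6, 23.1 and 27.1 CPM, which did not overlap. Its log2 difference of -1.12 ± 0.38 had an adjusted p of 0.104 by edgeR, 0.0111 by edgeR with the block and 0.0332 by DESeq2, and the blocked call was lost without pair 1 (0.114) or pair 3 (0.11). Cd14, the lipopolysaccharide co-receptor, had 224, 280 and 77.3 CPM against 432, 169 and 162 CPM and a log2 difference of -0.39 ± 0.48 (edgeR adjusted p = 0.69). The beta-glucan receptor Clec7a (-0.35), the lipid receptor Trem2 (-0.92) and the inhibitory receptor Cd300a (-0.09) did not pass. Cd163, the haemoglobin scavenger receptor, was too sparse for the test, with 9, 2 and 0 counts in Biotin+ and 149, 5 and 3 counts in Biotin-. Most of its counts lay in Biotin- replicate 1, and the 0 in Biotin+ replicate 3 allows up to 0.182 CPM.

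The secreted and metabolic products held both genes that passed. Pla2g7 stood at 17.6, 13.9 and 18.5 CPM in Biotin+ and 53.9, 44.0 and 72.7 CPM in Biotin-, means of 16.7 ± 2.46 and 56.9 ± 14.6 CPM (SD, n = 3 each). The groups lay well apart and the Biotin+ libraries were close to each other. Its log2 difference was -1.77 ± 0.25 (edgeR adjusted p = 0.00603, and 2.42e-05 with the block), the ratios within the pairs were -1.60, -1.65 and -1.96, and the call held in all 6 fits that left out 1 library. Spp1 stood at 83.1, 56.9 and 66.7 CPM in Biotin+ and 245, 130 and 190 CPM in Biotin-, means of 68.9 ± 13.3 and 188 ± 57.2 CPM. All Biotin+ libraries were below all Biotin- libraries, with pair ratios of -1.55, -1.19 and -1.51. Its log2 difference was -1.45 ± 0.26 (edgeR adjusted p = 0.00995, and 5.18e-05 with the block), and without Biotin+ replicate 2 the adjusted p was 0.0525.

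Relative to Lyz2, Spp1 and Pla2g7 varied from library to library. The count of Pla2g7 per count of Lyz2 ran from 0.0455 to 0.237 over the 6 libraries, 5.20 times from lowest to highest. That of Spp1 ran from 0.186 to 0.618. Both ratios overlapped between the groups. The count of Csf1r per count of Lyz2 ran from 0.126 to 0.177. Per count of the 7 macrophage identity genes, the highest library was 5.28 times the lowest for Pla2g7 and 3.37 times for Spp1. Other genes varied too, by 4.37 times for Mrc1, 3.50 times for Aif1 and 1.98 times for Adgre1. Flt3 and Xcr1, with fewer counts than Pla2g7, varied by 19.6 and 17.9 times. Osteopontin is made by many cell types besides macrophages, fibroblasts and T cells among them. The summed fibroblast and endothelial markers were also lower in every Biotin+ library than in any Biotin- library, and Col1a1, the main fibrillar collagen of fibroblasts, had 21.4, 21.2 and 34.0 CPM against 280, 136 and 157 CPM. Their part in the differences of Spp1 and Pla2g7 was not tested.

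Arg1, the arginase of suppressive myeloid cells, had 106, 73.6 and 37.6 CPM in Biotin+ and 374, 73.0 and 141 CPM in Biotin-. Pair 2 showed no difference (log2 ratio 0.01), while pairs 1 and 3 gave -1.82 and -1.89. Its log2 difference was -1.44 ± 0.55 (edgeR adjusted p = 0.151, and 0.0123 with the block). Cybb, the catalytic subunit of the phagocyte NADPH oxidase, had 38.8, 24.5 and 11.6 CPM against 68.8, 38.3 and 25.6 CPM and was lower in each pair. Its difference of -0.82 ± 0.44 had an edgeR adjusted p of 0.304, and of 0.00835 with the block, a call lost without pair 1 (0.0773) or pair 3 (0.188). Apoe, the lipid carrier abundant in tumour macrophages, had 308, 308 and 68.9 CPM against 877, 216 and 214 CPM and did not pass (edgeR adjusted p = 0.442, and 0.116 with the block).

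Among the 6 Fc receptors and adaptors, 0 passed edgeR's test or DESeq2 without the block, and 0 had an unadjusted edgeR p below 0.05. Fcer1g, whose product carries the signalling motif for several Fc receptors, had 110, 73.9 and 51.9 CPM in Biotin+ and 99.7, 29.2 and 33.6 CPM in Biotin-. It was higher in Biotin+ in each pair, by log2 ratios of 0.14, 1.33 and 0.62, although Biotin- replicate 1 was above Biotin+ replicates 2 and 3. The log2 difference was 0.53 ± 0.45 (edgeR adjusted p = 0.526), with the block 0.70 ± 0.23 (0.0468), and it was negative, at -0.23, when libraries were scaled to the CD8 T cell genes. With the block the call was lost without pair 2 (0.161) and without pair 3 (0.171). Fcgr2b, the inhibitory Fc receptor, had 48.8, 33.6 and 15.0 CPM against 146, 33.1 and 32.1 CPM and a log2 difference of -1.11 ± 0.60 (edgeR adjusted p = 0.311, and 0.0275 with the block), a call lost with the block without pair 1 (0.399) or pair 3 (0.143). The activating receptors Fcgr1 (-0.64), Fcgr3 (-0.81) and Fcgr4 (-0.41) and the adaptor Tyrobp (-0.20), which serves Trem2 and related receptors, did not pass in either fit.

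Set against macrophage transcripts of the same library, Fcer1g did not overlap between the groups. Per count of the 7 macrophage identity genes, Fcer1g gave 0.228, 0.171 and 0.322 counts in Biotin+ and 0.0772, 0.0771 and 0.0785 in Biotin-. The 3 Biotin- libraries lay close together although their macrophage counts differed several-fold, and each Biotin+ library was above them. The 4 Fcgr genes together gave 0.206, 0.174 and 0.268 against 0.196, 0.179 and 0.203 on the same scale, and overlapped. Fcer1g per count of Tyrobp was 2.46, 1.74 and 2.93 in Biotin+ and 1.49, 1.08 and 1.28 in Biotin-. Fcer1g is also a gene of NK cells, whose markers, in a list of 7 with those of gamma delta T cells, overlapped between the groups as a sum but did not move as one. Klrb1c, the NK1.1 antigen gene, named here after its values were seen, had 26.0, 19.0 and 9.87 CPM in Biotin+ and 13.0, 5.43 and 2.43 CPM in Biotin-. It was higher in Biotin+ in each pair (log2 ratios of 0.98, 1.76 and 1.92), with an edgeR adjusted p of 0.159, and of 0.000758 with the block. Of the same list, Klra4, a Ly49 receptor gene, was lower (log2 difference of -2.0 ± 0.35, edgeR adjusted p = 0.00883), and Eomes, a T-box factor of NK and CD8 T cells, had -0.50 ± 0.49 (0.602). Ncr1 and Klra8 of the same list were too sparse for the test. Ncr1 had 7, 1 and 0 counts in Biotin+ and 1, 0 and 0 in Biotin-, and Klra8 had 1, 6 and 0 against 13, 6 and 0. As a sum, the CD8 T cell markers also took a larger share of counts in every Biotin+ library. Cd8a per count of Lyz2 was 3.70, 4.23 and 10.5 in Biotin+ and 0.630, 3.09 and 1.63 in Biotin-, without overlap. The parts of NK cell and CD8 T cell transcripts in the Fcer1g ratio were not tested.

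Of the 33 myeloid genes outside the macrophage identity subset, 8 were higher in Biotin+ relative to it without overlap (Cd14, Clec7a, Cd300a, Fcer1g, Tyrobp, Csf3r, H2-Aa and H2-Ab1) and 0 were lower, beside 9.18% and 1.06% of all genes. The ratios were computed with the values in view and carry no test. All 7 genes of the denominator had negative log2 differences, so a gene that did not differ tends to be higher in Biotin+ on this scale. Many members also moved with the denominator from library to library. The shares of all genes are therefore not a like background. Within the denominator, Lyz2 supplied 0.684 to 0.740 of the counts, so these ratios are chiefly ratios to Lyz2.

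**Figure D4:**
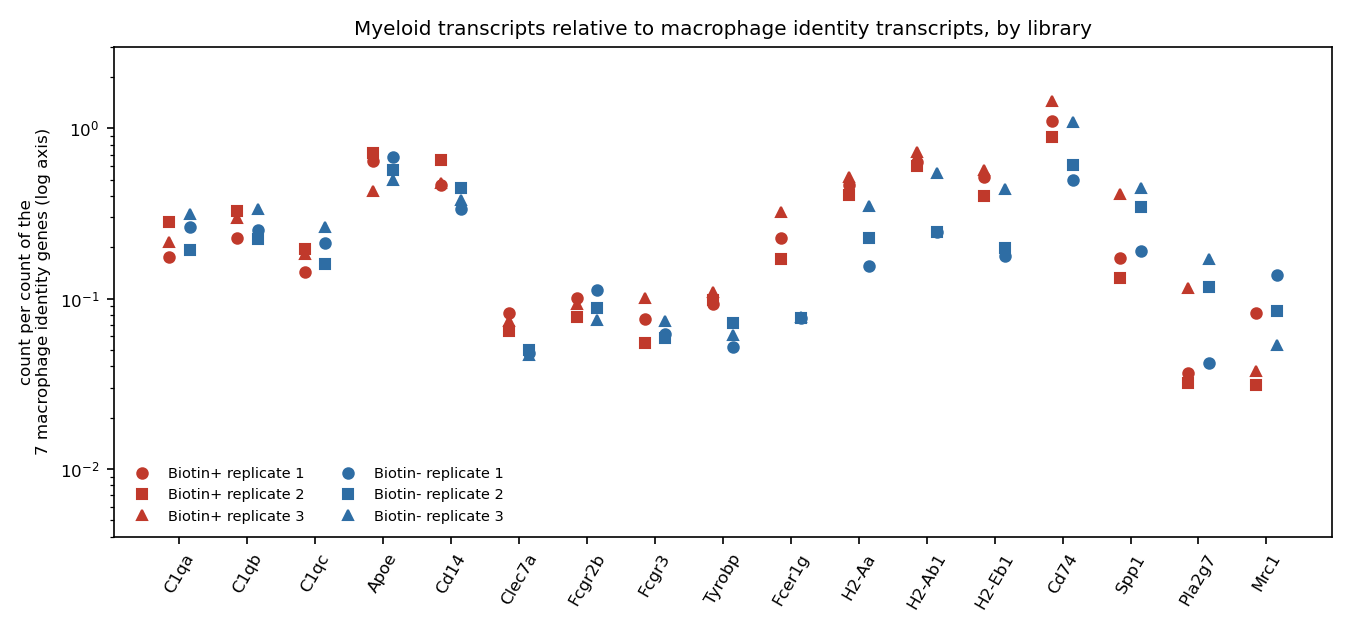
Count of each gene per count of the 7 macrophage identity genes (log axis) in each library, coloured by group with marker shape for the replicate number. The Biotin- values of Fcer1g lie together near 0.077 to 0.078 with all Biotin+ values above 0.17, while C1qa, C1qb and C1qc overlap.

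MHC class II genes included some of the most abundant of the set per kilobase, and 0 of the 5 passed in either fit, with a median log2 difference of 0.05. H2-Aa and H2-Eb1 are shown upstream of their starts because the class II genes moved together and share promoter elements known as the X and Y boxes, bound by the RFX and NF-Y factors that Ciita, the class II transactivator, works through. The sequences are from RefSeq on GRCm38.p6, H2-Aa at chr17:34287824-34287953 on the minus strand and H2-Eb1 at chr17:34305737-34305866 on the plus strand. Capitals mark GCAACT, letters of the X box, and GATTGG, the inverted CCAAT of the Y box.
H2-Aa: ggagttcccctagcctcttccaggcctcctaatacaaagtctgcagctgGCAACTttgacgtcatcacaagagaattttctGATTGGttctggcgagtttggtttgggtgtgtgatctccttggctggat
H2-Eb1: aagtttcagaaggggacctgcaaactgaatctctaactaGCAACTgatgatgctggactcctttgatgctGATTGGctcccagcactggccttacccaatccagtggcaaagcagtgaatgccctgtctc
The matches start 81 and 49 bases before the start of H2-Aa and 91 and 60 bases before that of H2-Eb1, whose window also holds GATTGG on the opposite strand, left in lower case. Searched on both strands, GCAACT was in 4.66% and GATTGG in 10.1% of all windows of 130 bases, and GCAACT followed by GATTGG with 15 to 45 bases between them was in 18 windows, 0.0548%. These letters were chosen after the windows were read, and the matches are a description.

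The alpha chain gene H2-Aa stood at 223, 175 and 83.0 CPM in Biotin+ and 199, 85.4 and 150 CPM in Biotin-. The beta chain gene H2-Ab1 had 306, 261 and 117 CPM against 317, 93.0 and 235 CPM, and H2-Eb1 had 248, 172 and 91.4 CPM against 230, 75.1 and 189 CPM. In all 3 genes Biotin+ was higher in pair 2, lower in pair 3 and close to Biotin- in pair 1. Their log2 differences were 0.15 ± 0.37, 0.08 ± 0.44 and 0.05 ± 0.42 (edgeR adjusted p = 0.859, 0.935 and 0.962), and turned negative, at -0.084, -0.16 and -0.18 with library size alone and at -0.66, -0.74 and -0.77 when scaled to the CD8 T cell genes. Cd74, the invariant chain that escorts class II molecules, had 533, 383 and 233 CPM against 643, 229 and 468 CPM (-0.22 ± 0.38, edgeR adjusted p = 0.784). Ciita had 5.07, 1.19 and 1.57 CPM against 4.18, 1.70 and 4.22 CPM (-0.36 ± 0.62, edgeR adjusted p = 0.784).

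Over the 6 libraries there were 0.659 to 0.810 counts of H2-Eb1 and 0.630 to 0.918 counts of H2-Aa per count of H2-Ab1. Cd74 per count of H2-Ab1 was 1.74, 1.47 and 1.99 in Biotin+ and 2.03, 2.47 and 1.99 in Biotin-, which ranged over 1.68 times. H2-Ab1 against macrophage lysozyme ranged over 3.19 times. H2-Ab1 per count of Lyz2 was 0.924, 0.854 and 1.06 in Biotin+ and 0.337, 0.332 and 0.766 in Biotin-, lower in every Biotin- library than in any Biotin+ library. The edgeR log2 difference was 0.08 for H2-Ab1 and -1.03 for Lyz2, and neither passed. Per count of Lyz2, Cd8a, Csf1r and Cd14 were also higher in Biotin+ without overlap, while Spp1, Pla2g7 and Apoe overlapped. These ratios carry no test, and how many of all genes separated on this scale was not counted. The class II sum per macrophage identity count was 2.73, 2.29 and 3.26 against 1.08, 1.28 and 2.44, which overlapped because Biotin- replicate 3 was above Biotin+ replicate 2.

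Neutrophil genes were sparse and uneven. S100a8 had 0.270, 4.75 and 0.363 CPM in Biotin+ and 1.22, 0.713 and 0.649 CPM in Biotin-, and S100a9 had 1.08, 8.69 and 0.606 against 1.36, 2.47 and 0 CPM. Both were highest in Biotin+ replicate 2, with 76 and 139 counts, and the 0 of S100a9 in Biotin- replicate 3 allows up to 0.162 CPM. The positive log2 differences (1.05 ± 1.0 and 1.43 ± 1.20, edgeR adjusted p = 0.586 and 0.528) became -1.46 and -0.60 without Biotin+ replicate 2. Csf3r, the receptor for G-CSF, had 5.99, 3.75 and 1.88 CPM against 3.55, 1.32 and 2.0 CPM and did not pass (0.76 ± 0.55, edgeR adjusted p = 0.46, and -0.023 when scaled to the CD8 T cell genes). Cxcr2, the chemokine receptor of neutrophils, had 10, 4 and 0 counts against 1, 0 and 0, where a count of 0 allows up to 0.182 CPM in Biotin+ replicate 3 and 0.165 and 0.162 CPM in Biotin- replicates 2 and 3.

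The dendritic cell genes were low as well. Xcr1, the chemokine receptor of cross-presenting dendritic cells, had 7.01, 4.94 and 10.9 CPM in Biotin+ and 4.87, 2.74 and 6.54 CPM in Biotin-. It was higher in Biotin+ in each pair, but the groups overlapped and the log2 difference of 0.69 ± 0.42 did not pass (edgeR adjusted p = 0.375, and 0.14 with the block) and was -0.080 when scaled to the CD8 T cell genes. Flt3, the receptor that drives dendritic cell development, had 7.12, 2.5 and 2.06 CPM against 3.99, 2.85 and 0.324 CPM (0.70 ± 0.77, edgeR adjusted p = 0.639). Clec9a, the dead-cell receptor of the same dendritic cells as Xcr1, had 21, 1 and 0 counts against 14, 9 and 1 and was not tested, and its 0 in Biotin+ replicate 3 allows up to 0.182 CPM.

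A list of 97 other myeloid genes, 83 of them tested, gave 1 gene higher in Biotin+ and 6 lower by the edgeR test, beside the same 1.53% and 6.72% of all genes. Its median log2 difference was -0.38, and with the replicate block 4 were higher and 17 lower, beside 5.60% and 12.0% of all genes. In the macrophage and monocyte part of the list, 5 of 56 were lower and 0 higher. Axl, a receptor tyrosine kinase for clearance of dead cells, fell by 2.05 ± 0.25 on the log2 scale (edgeR adjusted p = 0.00554), and the lysosomal glycoprotein gene Gpnmb fell by 1.95 ± 0.31 (edgeR adjusted p = 0.00770). Both held whichever library was left out. Fibronectin (Fn1) fell by 2.0 ± 0.44 (edgeR adjusted p = 0.0218), and passed no longer without Biotin+ replicate 2 (0.0977) or Biotin- replicate 1 (0.0509). The matrix protein gene Tgfbi fell by 1.05 ± 0.26 (edgeR adjusted p = 0.0324), with adjusted p of 0.0603 to 0.132 in the 5 fits without Biotin+ replicate 1, 2 or 3 or Biotin- replicate 1 or 3. Tlr4, named here after its values were seen as the remaining gene of the 5, fell by 2.18 ± 0.56 (edgeR adjusted p = 0.0384) and had 0.0641 to 0.217 without Biotin+ replicate 1 or 2 or Biotin- replicate 1 or 3.

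Axl, Fn1 and Tgfbi are also made by fibroblasts, and the stromal markers were lower in Biotin+ as given above. Their part in these differences was not tested. In the dendritic cell part, Irf8, a transcription factor of dendritic cells and monocytes that activated T cells also make, was higher at 1318 ± 318 CPM in Biotin+ against 413 ± 122 CPM in Biotin- (SD, n = 3 each). Its log2 difference was 1.67 ± 0.28 (edgeR adjusted p = 0.00837), and it held whichever library was left out. Fscn1, the actin-bundling protein of mature dendritic cells, fell by 1.02 ± 0.25 (edgeR adjusted p = 0.0304), and had 0.0810 to 0.140 without Biotin+ replicate 2 or 3 or Biotin- replicate 1 or 3. In the neutrophil part 4 of 12 genes were tested and in the class II part 8 of 8, and 0 passed edgeR's test without the block in either, with 1 neutrophil gene higher and 1 lower and 0 class II genes higher and 1 lower at an unadjusted p below 0.05. Both DESeq2 and the blocked edgeR test called 1 of these neutrophil genes higher and 0 lower, and 0 class II genes. Of all genes they called 3.53% and 5.60% higher and 10.4% and 12.0% lower. The neutrophil gene was Il1r2, the decoy receptor for interleukin 1, named here after its values were seen. Its adjusted p was 0.0320 by DESeq2 and 0.00132 by edgeR with the block. Scaled to the CD8 T cell genes, its log2 difference was 0.46 (edgeR adjusted p = 0.314). Il1r2 had 990, 708 and 465 counts in Biotin+, where S100a8 had 5, 76 and 6. The cells that its reads came from were not tested.

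The counting could mix some of these genes with others. In GENCODE transcripts of GRCm38, 9 of the 40 shared a stretch of 75 bases with another gene, and 0 of them over 10% or more of their length; the largest were Spp1 with 8.55% (an overlapping gene model), Lyz2 with 5.96% (its neighbour Lyz1) and Fcgr3 with 5.42% (Fcgr2b). Exons of 7 members overlapped another gene, among them Pla2g7 with a gene on the opposite strand, whose reads cannot be told apart where counting ignores strand.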

How the data were processed

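PolyA RNA of 6 libraries of FACS-sorted CD8 T cells was sequenced. The authors' deposited table holds raw read counts per gene, whole numbers with no normalization; the submitters' processing notes list Trim Galore 0.6.7, STAR 2.7.10a, Picard 1.14, featureCounts 2.0.1 and GRCm39. How strand was treated is not given in the sources used here. Intervals and floors (3 counts, 0.146 to 0.188 CPM per library) cover counting error only; intervals are 95% Clopper-Pearson ones.

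Counts were tested with edgeR 4.0.16 in R 4.3.3 (filterByExpr, TMM, robust quasi-likelihood F test), Biotin+ against Biotin-, with Benjamini-Hochberg adjustment over 13360 genes. Cd163, Cxcr2 and Clec9a did not pass the filter. Replicate numbers were taken to pair the libraries, because deviations from group means correlated at 0.397, 0.270 and 0.414 for equal numbers. For unequal numbers the correlations were -0.292 to -0.0887. Deviations within a group cancel out, so positive values for equal numbers bring negative ones for unequal numbers. The negative values are therefore no separate support for the pairing, which the labels do not state. Alternatives were the replicate block, library size alone, DESeq2 size factors, DESeq2 1.42.0, scaling to 15 CD8 T cell genes, other filters, and leaving out libraries or pairs. Replicates of a group did not match within counting error, with a chi-square of 39.2 to 107 for each degree of freedom. The code was tested on simulated data.

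The 40 genes, the gene lists and the alternatives were chosen with earlier results of these data known. By plan, all 40 could be named. So could, of the other list, up to 4 genes with the smallest p in each direction of each part, and of the markers Cd8a and Col1a1. Values of Tlr4, Il1r2, Klrb1c, Klra4, Eomes, Ncr1, Klra8, Cdh1, Ighm and Cd4 were given outside this rule. Upstream sequences came from RefSeq on GRCm38.p6; exon lengths from GENCODE on the same build, since GRCm39 was not used here for sequence.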

Additional observations from a re-analysis of the deposited data

How the results depend on the processing

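Spp1 and Pla2g7 were lower in Biotin+ with adjusted p below 0.05 under each alternative run, except Spp1 without Biotin+ replicate 2. The numbers of calls moved more. With the replicate block, which rests on the pairing of equal numbers, 748 genes were higher and 1599 lower instead of 205 and 898, and the myeloid genes gave 1 and 9 and the other myeloid genes 4 and 17. Higher genes made up 18.6% of all calls, 31.9% with the block, 8.61% with library size alone and 0.667% with scaling to CD8 T cell genes. Library size alone gave 84 higher genes. Scaling to CD8 T cell genes gave 24 higher and 3574 lower, with 15 myeloid and 32 other myeloid genes lower. Without the filter, 396 of 22334 genes were higher and 1495 lower, and 3 other myeloid genes were higher and 22 lower. Of the 40 myeloid genes, 8 were lower in that fit, a larger share than that of all genes. DESeq2 gave 471 and 1389, and 2 and 13 for the other myeloid genes. Leaving out 1 library gave 23 to 200 higher and 239 to 1044 lower genes, 1 to 2 myeloid genes lower, and 1 to 2 higher and 2 to 10 lower among the other myeloid genes; the low ends for all genes came without Biotin- replicate 3. Without pair 1, 2 or 3 there were 67, 46 and 39 higher and 385, 445 and 588 lower, and 3 other myeloid genes lower without pair 1. Blocked fits without 1 pair, chosen after seeing the data, gave 395 higher without pair 1 and 1163 higher and 2020 lower without pair 2. They gave 2 myeloid genes higher without pair 1 and 4, 25 and 5 lower without pairs 1, 2 and 3. Among the other myeloid genes they gave 4, 3 and 3 higher and 12, 42 and 14 lower. As log2 ratios of mean shares, the Fc subset moved from -0.53 to -1.19 and the dendritic cell subset from 0.49 to -0.14 with CD8 T cell counts as denominator, and the Fc subset ran from -0.88 to 0.24 with 1 library left out. The causes were not tested.

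Signs turned for some genes, and where they did the adjusted p stayed above 0.05. With 1 library left out, the log2 difference ran from -0.87 to 0.22 for Spi1, -1.08 to 0.043 for Csf1r, -0.65 to 0.24 for Aif1, -0.78 to 0.23 for Cd14, -0.75 to 0.44 for Clec7a and -0.46 to 0.63 for Cd300a. It ran from -1.32 to 0.088 for Apoe, -0.48 to 0.39 for Tyrobp, -1.46 to 1.57 for S100a8, -0.60 to 2.24 for S100a9, -0.068 to 1.29 for Flt3 and -0.19 to 0.46 for H2-Aa, and from -0.34 to 0.48 for H2-Ab1, -0.37 to 0.37 for H2-Eb1 and -0.60 to 0.14 for Cd74. Without pair 3, it became 0.28 for Aif1, 0.068 for Cd74 and 0.090 for Ciita. With the block and without pair 3, it became 0.29 for Aif1, 0.027 for Cd300a, 0.019 for Fcgr4, 0.025 for Tyrobp and 0.23 for Cd74. Without pair 1, it became 0.12 for Cd14, 0.033 for Clec7a, 0.61 for Cd300a, 0.17 for Tyrobp and -0.0064 for H2-Eb1. With the block, it became 0.065 for Cd300a. With the block and without pair 1, it became 0.58 for Cd300a and 0.044 for Tyrobp. Scaled to CD8 T cell genes, it became -0.23 for Fcer1g, -0.023 for Csf3r, -0.080 for Xcr1, -0.66 for H2-Aa, -0.74 for H2-Ab1 and -0.77 for H2-Eb1. Without pair 2, it became -1.61 for S100a8, -0.25 for H2-Aa, -0.44 for H2-Ab1 and -0.37 for H2-Eb1. With the block and without pair 2, it became -1.56 for S100a8, -0.40 for H2-Aa, -0.59 for H2-Ab1 and -0.53 for H2-Eb1. With library size alone, it became -0.084 for H2-Aa, -0.16 for H2-Ab1 and -0.18 for H2-Eb1. Without the filter, it became -0.0028 for H2-Eb1. The sparse neutrophil and dendritic cell genes limit what could be detected.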
